A study of Mus musculus with 34 samples.

Results

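A set of 10 genes of hepatic fat synthesis was followed through thyroid hormone disruption in juvenile mouse liver. They were Thrsp, Me1, Fasn, Acaca, Acacb, Acly, Scd1, Elovl6, Srebf1 and Mlxipl, and they were taken from the array by the RefSeq accession that each non-control probe carries. All 10 genes were present, on 13 of 41174 probes, with 2 probes for Fasn and 3 for Acaca. Every probe is given separately. Each probe was a single spot, with no value missing on any of the 34 arrays.

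Livers came from C57BL/6 pups at postnatal day (PND) 15, 1 pup an array, 17 males and 17 females. Control pups (4 males, 4 females) received saline. Hyper pups (5 males, 5 females) received 50 µg T4 and 5 µg T3 per 100 g body weight. Dams of the hypo pups (4 males, 5 females) drank water with 0.05% methimazole and 1% perchlorate, which together block hormone synthesis and iodide uptake, for the last days before collection, and these pups received saline. The hypo+ pups (4 males, 3 females) had dams on the same water and received 20 µg T4 and 2 µg T3 per 100 g. All injections were given 4 hours before collection, and goitrogens are described only for the dams of hypo and hypo+ pups. The hypo+ group is not a random set of replaced pups, since the study split the replaced pups by measured serum T4 and kept in it those near or a little above the control level. Each pup's RNA was labelled with Cy5 and hybridised beside the same commercial mouse reference RNA in Cy3. A value below is the loess-normalised log2 ratio of pup to reference on 1 probe, so values may be compared between pups but not between probes.

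Liver makes fatty acids from citrate-derived acetyl-CoA, with NADPH as the reductant. Thyroid hormone is a classical inducer of this program: it acts through nuclear receptors, and Thrsp (Spot 14) and Me1 (malic enzyme) are long-used markers of its action in rodent liver. Srebf1 and Mlxipl (ChREBP) encode the transcription factors that tie the same enzymes to insulin and to carbohydrate. Suckling pups take a milk diet rich in fat, in which hepatic fat synthesis is low until weaning.

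The promoters of Thrsp, Me1 and Fasn are printed first because only these members had a mean below control in hypo pups and above control in hyper pups on every probe and in both sexes, whether or not the difference passed a test. Each is the RefSeq entry of 300 bases, 250 before and 50 after a start site, in build GRCm38.p6, on the minus strand and read 5′ to 3′. Capitals mark CCAAT and GGGCGG on either strand. The regions are chr7:97417501-97417800 for Thrsp, chr9:86695865-86696164 for Me1 and chr11:120824498-120824797 for Fasn.
Thrsp: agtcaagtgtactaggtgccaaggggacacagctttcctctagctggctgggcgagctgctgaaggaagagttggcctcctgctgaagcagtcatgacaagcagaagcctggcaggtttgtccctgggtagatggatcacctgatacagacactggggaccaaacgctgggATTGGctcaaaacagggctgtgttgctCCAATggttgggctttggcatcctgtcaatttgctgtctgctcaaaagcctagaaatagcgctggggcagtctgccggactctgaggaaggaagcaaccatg
Me1: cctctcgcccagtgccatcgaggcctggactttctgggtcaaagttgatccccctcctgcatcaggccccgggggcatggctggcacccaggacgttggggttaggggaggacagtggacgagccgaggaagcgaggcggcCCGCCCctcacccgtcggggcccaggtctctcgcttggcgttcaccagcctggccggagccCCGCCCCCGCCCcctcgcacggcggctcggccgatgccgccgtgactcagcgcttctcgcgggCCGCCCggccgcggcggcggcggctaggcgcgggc
Fasn: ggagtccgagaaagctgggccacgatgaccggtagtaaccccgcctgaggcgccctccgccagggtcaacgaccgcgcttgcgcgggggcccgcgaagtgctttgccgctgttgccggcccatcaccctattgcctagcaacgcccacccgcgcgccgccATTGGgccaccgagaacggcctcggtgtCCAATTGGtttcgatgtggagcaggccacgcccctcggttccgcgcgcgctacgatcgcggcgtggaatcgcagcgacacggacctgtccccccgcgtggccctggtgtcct
The Thrsp window held 2 copies of CCAAT and the Fasn window 3, a pair of which overlap, and neither held GGGCGG. The Me1 window held 4 copies of GGGCGG, a pair of them side by side, and no CCAAT. None of these 3 windows held AGGTCA, the half-site that thyroid hormone receptors share with other nuclear receptors, which occurred in 16.3% of the 32851 promoters in the table. Only this exact run was searched for. The study describes response elements with imperfect half-sites, such as AGGACA, so a window without AGGTCA may still hold a receptor element. Of the 10 genes, 9 had at least 1 entry, and Scd1 had none. CCAAT occurred in an entry of 7 of these 9 genes against 37.4% of all promoters, and GGGCGG in 4 of 9 against 35.7%. Genes with several entries had more chances to match. The E-box CACGTG (7.15% of all promoters) and the sterol element TCACNCCAC (1.24%) each occurred only in Mlxipl among the members. A match is a run of letters and not a measured site, and the windows are short beside the regions through which these genes are regulated.

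The arrays were first checked for identity. Albumin, Apoa1 and Ttr, defining products of hepatocytes, were well above background in Cy5 on all 34 arrays. Dio1, the liver deiodinase gene that responds to thyroid hormone, was 2.74-fold lower in hypo than control males (log2 fold-change -1.46 ± 0.20 SE, n = 4 and 4, limma adjusted p = 0.0124) and 3.42-fold lower in females (-1.77 ± 0.27, n = 5 and 4, adjusted p = 0.00923), with no overlap in either sex. Some livers carried markers of neighbouring tissue. The 8 pancreatic acinar markers averaged a log2 ratio of 4.47 in control male 832, 4.12 in control male 522, 3.19 in control female 831 and 1.97 in hypo+ female 543, against at most 0.91 in the other 30 pups. The 8 adipocyte markers averaged 2.15 in hypo male 311, 1.82 in hyper female 499 and 1.24 in hypo female 721, against at most 0.89 in the other 31. The summed Cy5 signal of the adipocyte list ran from 9406 to 16710 in control males, from 7403 to 19230 in hypo males, from 10190 to 37040 in hyper males and from 6397 to 9710 in hypo+ males. In females of the same groups, in that order, it ran from 8051 to 12640, 7634 to 14470, 12660 to 15880 and 7883 to 10640. This sum mostly follows Fabp4, which ran from 5481 to 36144.8 over all arrays, while the next brightest marker, Cidea, reached 2213. By the mean log2 ratio of the 8 markers, hyper males reached at most 0.747. The summed acinar signal ran from 7182 to 108500 in control males, 4933 to 17680 in control females and 3213 to 11570 in the other groups. Of the 8 adipocyte markers, Fabp4 and Lipe were well above background on all 34 arrays, Cfd on 31, Plin1 on 29, Cidea on 28, Retn on 22, Adipoq on 7 and Lep on 0. Fat cells express most of the genes described here. For hypo against control and hypo+ against hypo, averaged differences of Thrsp and Me1 are therefore also given without these pups. The same is done for Me1 in hyper pups, and within each sex between hypo+ and hypo. It is also done for an Acly difference, the correlated pairs and the counts of genes that passed. For the other results the part of these tissues was not tested. In whole liver, fewer cells of a type and less RNA per cell cannot be told apart.

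With another test, the study itself called Thrsp in hypo pups of both sexes and in hyper females, and Me1 in hypo females. With limma as used here, no member passed an adjusted p of 0.05 against control in either sex alone. The background was low too. Of all 41174 probes, 0.0971% passed in hypo against control males and 0.155% in females, 0.0753% and 0.158% in hyper against control, and 0.0267% and 0.0219% in hypo+ against control. Between hypo+ and hypo, 1 of 10 genes passed in each sex, Me1 both times, against 0.369% of probes in males and 0.556% in females. At an unadjusted p below 0.05 on their brightest probe, 3 genes in males and 4 in females differed between hypo and control, where 5.2% and 4.72% of all probes did. Between hyper and control 2 and 3 did (2.97% and 6.16% of all probes), between hypo+ and control 0 and 1 (7.56% and 4.79%), and between hypo+ and hypo 2 and 5 (9.18% and 7.76%). The sexes were not shown to differ in their response: no member, and no probe at all, passed in the test of sex by treatment (0% of 41174 probes for each of the 3 treatments). Males and females were also averaged in a fit of all 34 arrays, with pups whose animal numbers share their first 2 digits treated as 1 litter. This fit was added after the results for each sex had been seen. In that fit 2 genes passed between hypo and control, Thrsp and Me1, against 0.95% of probes. Only Me1 passed between hyper and control (0.692% of probes), no gene between hypo+ and control (0.585%), and Thrsp and Me1 between hypo+ and hypo (2.72%). Hypo, hyper and hypo+ were all compared with the same control pups, and hypo pups enter both comparisons that bear on them. Taking the brightest probe of each of the 10 genes, the fold-changes against control had a log2 median of 0.01 for male and -0.05 for female hypo pups, and of 0.20 for male and 0.21 for female hyper pups, beside medians within 0.01 of 0 over all probes.

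Complete separation of groups was counted as well. Between hypo and control, 2 of the 13 probes separated in males and 1 in females, where 3.08% and 1.77% of all probes did. Between hyper and control, 2 separated in males and 3 in females, where 1.27% and 2.54% of all probes did. Between hypo+ and control, 0 and 1 separated (4.12% and 5.88% of all probes), and between hypo+ and hypo 1 and 3 separated (4.61% and 5.06%). The genes concerned are named below.

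**Figure D1:**
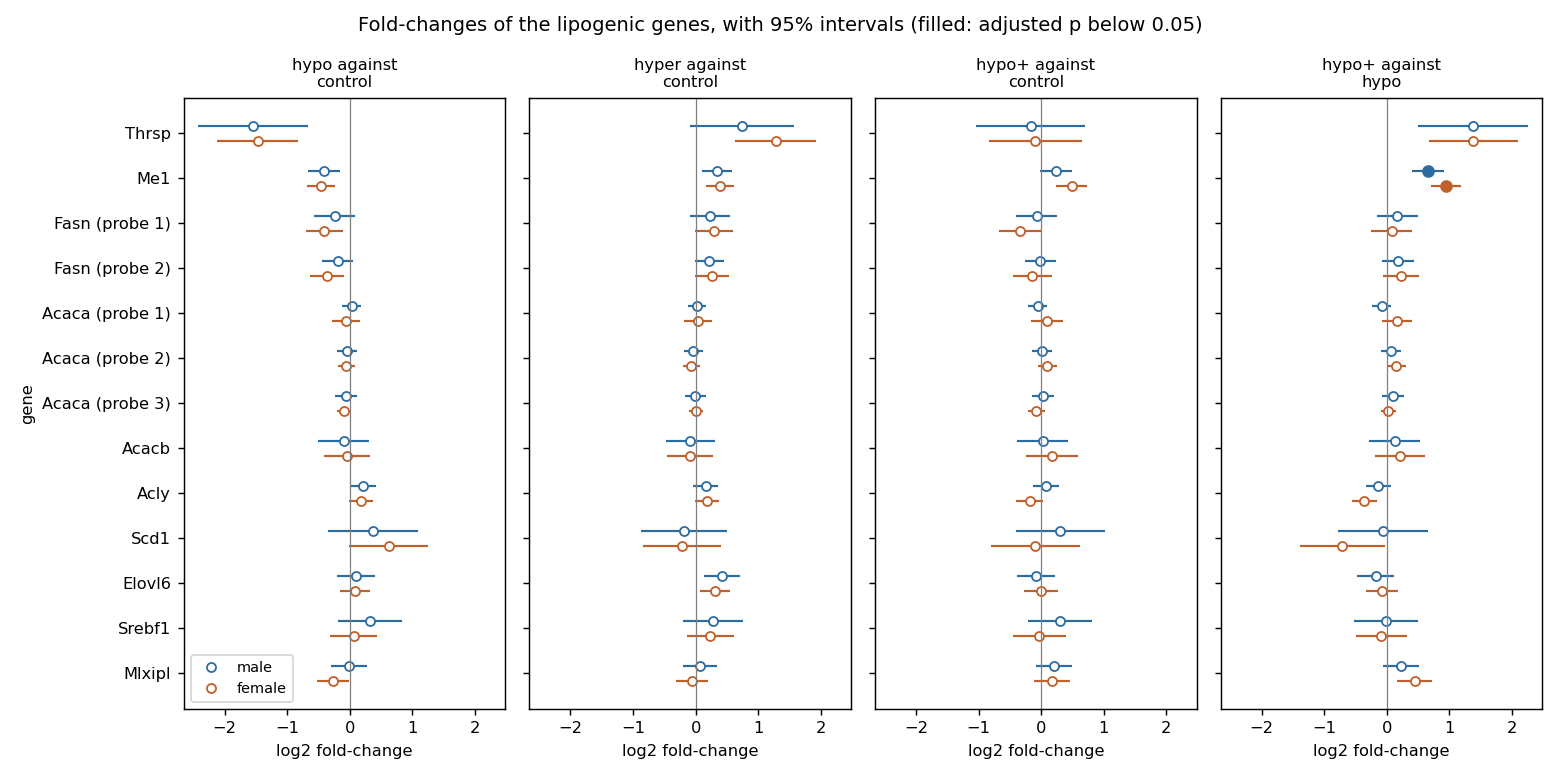
Log2 fold-change (x axis) of each of the 13 probes (y axis) in the 4 comparisons, fitted in males (blue) and females (orange), with 95% intervals. Filled points had a limma adjusted p below 0.05, which only Me1 reached, at 0.66 in males and 0.95 in females between hypo+ and hypo. Thrsp lies farthest from 0 in the comparisons of hypo with control.

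Thrsp, a nuclear protein that promotes transcription of lipogenic genes, spanned the widest range of the members. In males its log2 ratio was 2.17, 2.23, 2.53 and 2.56 in control pups, and 0.03, 0.61, 1.32 and 1.33 in hypo pups. It was 2.56, 2.69, 3.06, 3.19 and 4.06 in hyper males, and 0.97, 2.16, 2.29 and 3.37 in hypo+ males. All hypo males lay below all control males, the lowest hyper male lay above the highest control male by less than the second decimal, and hypo+ males spread from within the hypo range to within the hyper range.

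In females Thrsp was at 1.39, 1.87, 2.59 and 2.71 in control pups, and at 0.12, 0.44, 0.49, 0.50 and 1.78 in hypo pups. Hyper females had 2.80, 3.37, 3.47, 3.70 and 3.75, and hypo+ females had 1.92, 2.05 and 2.16. Hypo female 893, at 1.78, stood apart from its group and above the lowest control female. All hyper females lay above all control females, and the 3 hypo+ females lay within the control range.

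Thrsp was 2.93-fold lower in hypo than control males (-1.55 ± 0.41 SE, limma adjusted p = 0.358) and 2.78-fold lower in females (-1.48 ± 0.31, adjusted p = 0.0768). Averaged over the sexes it fell by 1.51 on the log2 scale (SE 0.28, adjusted p = 0.00256), and it rose by 1.38 ± 0.29 between hypo and hypo+ (adjusted p = 0.00452). The second call was lost with normexp (1.21, adjusted p = 0.0835), the scanner ratio (1.34, 0.0540), Cy5 alone (1.23, 0.0696) and slide as a fixed block (1.18, 0.0665). The hyper pups averaged 1.01 ± 0.27 above control (adjusted p = 0.0866), which passed with slide as a fixed block (1.11, adjusted p = 0.0351) or a random block (1.05, adjusted p = 0.0166), or without hypo+ male 546 (adjusted p = 0.0394) or hypo+ male 761 (adjusted p = 0.0440). The hypo+ pups averaged -0.13 ± 0.29 from control (adjusted p = 0.951, 95% interval -0.74 to 0.47). Without the 3 pups that carried adipocyte markers the hypo difference was -1.59 (adjusted p = 0.00634), and without the 4 that carried acinar markers it was -1.41 (adjusted p = 0.0419). The hypo+ against hypo difference was 1.45 (adjusted p = 0.00882) and 1.41 (adjusted p = 0.0119) without them.

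These Thrsp values came from a faint spot. Its Cy5 signal ranged from 105.5 in hypo male 723 to 2065 in hyper male 583, while the limit set by negative control spots ranged from 85.0 to 106 over the arrays. Hypo male 723 and hypo female 316 were the only arrays on which it was not well above background in Cy5, and in Cy3 it was well above background on 24 of 34 arrays. Under the 6 normalisations tried, the hypo difference was -1.17 to -1.53 in the fit of both sexes, but it did not pass with normexp background correction (-1.19, adjusted p = 0.134) or median centring (-1.17, adjusted p = 0.0716). The hyper difference was 0.75 to 1.24 under 4 of the other normalisations, and 0.23 with the scanner software's own ratio, which subtracts local background.

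**Figure D2:**
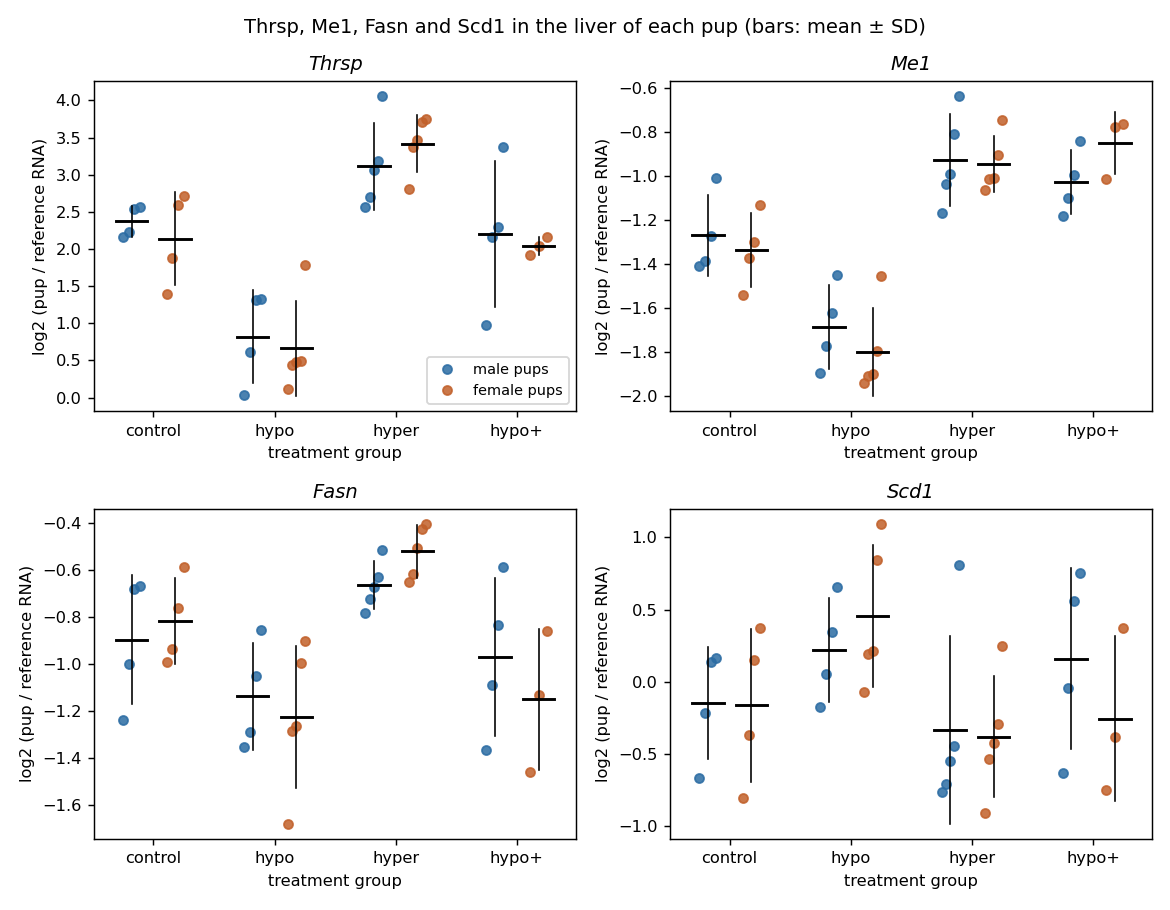
Log2 ratio of pup to reference RNA (y axes, scaled for each gene) for Thrsp, Me1, the brighter Fasn probe and Scd1 in each treatment group (x axes). Points are single pups, male in blue and female in orange, with the mean and SD as bars. Thrsp and Me1 are lowest in hypo pups, with Thrsp down to 0.03 and Me1 down to -1.94, while Scd1 overlaps between all groups.

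Me1 encodes cytosolic malic enzyme, a source of the NADPH spent in fat synthesis, and it was the member that passed in each sex alone. In males it was at -1.41, -1.39, -1.27 and -1.01 in control pups, and at -1.90, -1.78, -1.63 and -1.45 in hypo pups. It was at -1.17, -1.04, -0.99, -0.81 and -0.64 in hyper males, and at -1.18, -1.10, -1.0 and -0.84 in hypo+ males. Every hypo male lay below every control and every hypo+ male, while hyper and hypo+ males overlapped the highest control pup, male 391.

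In females Me1 was at -1.54, -1.37, -1.30 and -1.13 in control pups, and at -1.94, -1.91, -1.90, -1.80 and -1.46 in hypo pups. Hyper females had -1.06, -1.02, -1.01, -0.90 and -0.75, and hypo+ females had -1.01, -0.78 and -0.76. Both hormone-injected groups lay wholly above control, and the same hypo female that was high for Thrsp, 893, was the 1 hypo pup within the control range.

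Between hypo and hypo+, Me1 rose 1.58-fold in males (0.66 ± 0.12 SE, n = 4 and 4, limma adjusted p = 0.0210) and 1.93-fold in females (0.95 ± 0.11, n = 3 and 5, adjusted p = 0.000438). The male call was lost without hypo male 311 (0.63, adjusted p = 0.0859), hypo male 723 (0.59, 0.0849), hypo+ male 454 (0.60, 0.0890) or hypo+ male 761 (0.65, 0.0682), of which hypo male 311 carried adipocyte markers. It was also lost with median centring (0.52, adjusted p = 1.00), with the scanner software's ratio (0.79, adjusted p = 0.0582) and when only the groups compared were fitted (0.66, adjusted p = 0.0652). In females the adjusted p was at most 0.00498 whichever array was left out, 0.796 with median centring (0.77), 0.0541 with Cy5 alone (0.91), 0.00103 without the pups carrying adipocyte markers, and 0.00136 without those carrying acinar markers, hypo+ female 543 among them.

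Averaged over the sexes, Me1 fell by 0.44 on the log2 scale in hypo pups (SE 0.08, adjusted p = 0.00358), rose by 0.36 ± 0.08 in hyper pups (adjusted p = 0.0227) and rose by 0.81 ± 0.09 from hypo to hypo+ (adjusted p = 2.9e-07). None of these 3 calls held with median centring (adjusted p = 1.00, 1.00 and 0.499). The hypo+ mean was 0.36 ± 0.09 above control, with an adjusted p of 0.0503. Without the pups carrying adipocyte markers the hypo and hypo+ against hypo differences were -0.41 (adjusted p = 0.0189) and 0.78 (4.5e-06), and without those carrying acinar markers -0.54 (0.00285) and 0.84 (9.2e-07). The hyper call was lost with normexp (0.37, adjusted p = 0.0628) and with Cy5 alone (0.34, adjusted p = 0.293). It was lost without the pups carrying acinar markers, 3 of them controls (0.27, adjusted p = 0.329), and without those carrying adipocyte markers (0.34, adjusted p = 0.0609). It was also lost when control male 832, control male 522 or control female 831 alone was left out. On the smaller dose, hypo+ pups reached a mean of -1.03 in males and -0.85 in females, beside -0.93 and -0.95 in hyper pups, and these doses started from different hormone states, so no comparison between them was made.

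Pups on the same slide were compared next, as each of the 11 slides held 2 to 4 of the arrays. These were the pups of the fits above, so the slides gave no separate support. The share of all probes with 1 direction on every slide was not counted, here or for the genes below. On all 7 slides that held hypo and control pups of 1 sex, Thrsp was lower in hypo, by 0.09 to 2.27, and Me1 was lower by 0.18 to 0.53. On all 8 slides with hyper and control pups both were higher in hyper, Thrsp by 0.14 to 2.31 and Me1 by 0.02 to 0.64. On the 4 slides with hypo+ and hypo pups Thrsp was higher in hypo+ by 0.36 to 1.67 and Me1 by 0.53 to 1.14. Against control, hypo+ pups were higher on 5 of 5 slides for Me1 but on 1 of 5 for Thrsp. With slide as a random block, Thrsp and Me1 passed between hypo and control in females (adjusted p = 0.0411 and 0.0192) and Me1 between hyper and control (0.0415).

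**Figure D3:**
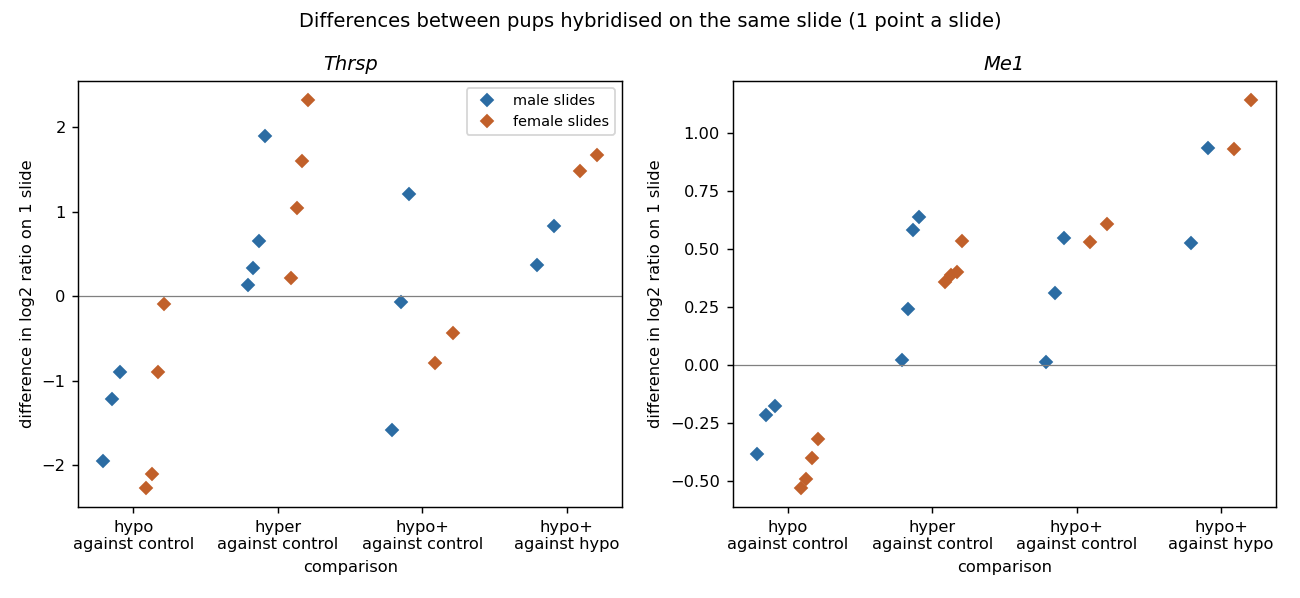
Difference in log2 ratio between group means on 1 slide (y axes) for Thrsp and Me1 in the 4 comparisons (x axes), 1 point a slide, male slides in blue and female in orange. All 7 slides lie below 0 for hypo against control and all 4 above 0 for hypo+ against hypo, whereas for hypo+ against control Thrsp lies on both sides.

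The enzymes of the synthetic path follow, none of which passed in either sex alone. Acly, the ATP citrate lyase that makes cytosolic acetyl-CoA, was at -0.11, -0.08, 0.19 and 0.25 in control males and at 0.18, 0.28, 0.29 and 0.35 in hypo males. In females it was at -0.01, 0.04, 0.11 and 0.30 in control and at 0.22, 0.25, 0.30, 0.32 and 0.35 in hypo pups. Hypo pups sat in the upper part of the control range or above it, opposite in direction to Thrsp and Me1, and hyper means were also above control, by 0.16 and 0.18. The differences of 0.21 ± 0.10 SE in males and 0.18 ± 0.09 in females did not pass (limma adjusted p = 0.945 and 1.00). On all 7 shared slides hypo was above control, by 0.004 to 0.36, and hyper was above control on all 8 of its shared slides, by 0.007 to 0.41. Hypo+ females, at -0.20, -0.12 and 0.10, lay below all 5 hypo females, and the averaged difference of -0.25 ± 0.07 between hypo+ and hypo had an adjusted p of 0.0528. That difference passed with probes above the negative control limit (adjusted p = 0.0461), slide as a random block (0.0231), no litter block (0.0485), or without the pups carrying acinar markers (-0.29, 0.0194).

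Acaca and Acacb encode the acetyl-CoA carboxylases that make malonyl-CoA, Acaca for synthesis in the cytosol and Acacb at the mitochondrion, where malonyl-CoA restrains fat oxidation. None of the 3 Acaca probes differed by more than 0.16 in any comparison and sex, and their averaged 95% intervals all lay between -0.18 and 0.21. All 3 were faint, the faintest being well above background in Cy5 on 20 of 34 arrays, and their pup-to-pup deviations hardly followed one another (r from -0.26 to 0.22 over 34 pups). Acacb, well above background on 29 arrays, differed by at most 0.21, with averaged intervals between -0.37 and 0.46. Changes within these bounds were not resolved by these arrays.

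Fasn, the fatty acid synthase, was measured by 2 probes, both well above background in Cy5 on all 34 arrays. The second was faint, with a Cy5 signal of 141.5 to 324, against 3904 to 12651 on the first. On the brighter probe, control males had -1.24, -1.0, -0.68 and -0.66, hypo males -1.35, -1.29, -1.05 and -0.86, hyper males -0.78, -0.72, -0.67, -0.63 and -0.51, and hypo+ males -1.37, -1.09, -0.83 and -0.59. Control females had -0.99, -0.93, -0.76 and -0.59, hypo females -1.68, -1.28, -1.27, -0.99 and -0.90, hyper females -0.65, -0.61, -0.50, -0.42 and -0.40, and hypo+ females -1.46, -1.13 and -0.86. Group means rose in order from hypo to control to hyper in both sexes, but neighbouring groups overlapped on this probe. On the other probe all 5 hypo females, from -0.74 to -0.27, lay below all control females, from -0.25 to 0.00.

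The averaged hypo difference was -0.32 ± 0.11 SE on the brighter probe and -0.28 ± 0.09 on the other (limma adjusted p = 0.273 and 0.215), and the hyper difference was 0.26 ± 0.11 and 0.24 ± 0.09 (0.571 and 0.395). The probes thus gave like values, and their deviations among pups correlated (r = 0.65). Between hypo+ and hypo the averaged difference was 0.12 and 0.20, with 95% intervals of -0.12 to 0.36 and 0.00343 to 0.389 and adjusted p-values of 0.762 and 0.372. Whether Fasn and Me1 differ in this was not tested.

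Elovl6 elongates palmitate, and Scd1 desaturates the products. Elovl6 was higher in every hyper pup than in every control pup of its sex: -1.32, -1.31, -1.27, -1.25 and -0.78 against -1.78, -1.61, -1.58 and -1.47 in males, and -1.37, -1.35, -1.33, -1.21 and -1.12 against -1.73, -1.71, -1.52 and -1.39 in females. The difference was 0.43 ± 0.13 SE in males (limma adjusted p = 0.875) and 0.31 ± 0.11 in females (0.605), or 0.37 ± 0.10 averaged (0.0688). The averaged difference passed with the authors' values (0.37, adjusted p = 0.0334), the scanner ratio (0.53, 0.0499), Cy5 alone (0.38, 0.0333), slide as a random block (0.37, 0.0152) and no litter block (0.37, 0.0451). It was positive on all 8 shared slides, by 0.06 to 0.80. Hypo pups did not lie below control, with an averaged difference of 0.09 (95% interval -0.11 to 0.29).

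Scd1 varied widely among pups of 1 group. Control males had -0.67, -0.22, 0.13 and 0.16 and hypo males -0.18, 0.05, 0.34 and 0.66, while control females had -0.81, -0.37, 0.15 and 0.37 and hypo females -0.07, 0.19, 0.21, 0.84 and 1.1. Its means were highest in hypo pups, 0.50 ± 0.24 SE above control in the averaged fit (limma adjusted p = 0.631), and lowest in hyper pups (-0.19 ± 0.24, adjusted p = 1.00). This order was the reverse of that of Thrsp and Me1, within overlapping groups. The hyper male at 0.81 stood far above the other 4 hyper males, which lay from -0.77 to -0.45.

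Srebf1 and Mlxipl, the regulators, did not pass in any comparison as fitted here, though Mlxipl did under other settings. Srebf1 was at 1.96, 2.23 and 2.32 in 3 control males but at 0.95 in control male 522, which also carried acinar markers, and from 1.85 to 2.51 in the other 13 males. In females it ran from 1.62 to 2.39 among controls, 1.92 to 2.28 with hypo, 2.07 to 2.46 with hyper and 1.38 to 2.39 with hypo+ treatment. Its averaged differences from control, 0.19 in hypo, 0.26 in hyper and 0.13 in hypo+, each had a 95% interval that held 0. Mlxipl ranged from 4.10 to 4.88 over all pups. It was lower in hypo than hypo+ pups by 0.33 ± 0.10 averaged over the sexes (adjusted p = 0.0763). This difference was 0.71 with Cy5 alone (adjusted p = 0.000203) and 0.30 with slide as a random block (0.0291), and it also passed without hypo male 576 (0.40, 0.0146) or hypo female 721 (0.37, 0.0294).

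The surrounding pathway was examined through 5 lists with 49 genes in all, of which 48 were on the array. In males none passed against control, and 1 rose from hypo to hypo+, where 0.369% of all probes passed. In females 2 fell in hypo pups (0.155% of all probes passed), none passed in hyper or hypo+ pups against control, and 2 rose from hypo to hypo+ (0.556%). Over the 48 genes the fold-changes of hypo pups had a median of -0.04 for males and -0.06 for females, beside medians of 0.00 over all probes, and 0.04 in hyper pups of either sex.

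The genes that passed lay in the lists of regulators and of elongation and desaturation. Ppargc1b, a coactivator of SREBP-driven fat synthesis, was measured by 2 probes. In males the first probe averaged 0.91 ± 0.23 (SD, n = 4) for control, 0.27 ± 0.21 for hypo (n = 4), 1.21 ± 0.18 for hyper (n = 5) and 1.49 ± 0.40 for hypo+ pups (n = 4). In females the same groups averaged 0.80 ± 0.12 (n = 4), 0.11 ± 0.11 (n = 5), 1.02 ± 0.15 (n = 5) and 1.35 ± 0.25 (n = 3). Its rise from hypo to hypo+ was 2.33-fold in males (1.22 ± 0.17 SE, limma adjusted p = 0.00234) and 2.36-fold in females (1.24 ± 0.11, adjusted p = 2.0e-05). In females it fell 1.61-fold in hypo pups (-0.69 ± 0.10, adjusted p = 0.00676). The second probe passed in the same 3 comparisons, and the groups did not overlap in any of them on either probe. Of all probes, 4.61% separated between hypo+ and hypo in males and 5.06% in females, and 1.77% between hypo and control in females.

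Elovl5, an elongase of polyunsaturated fatty acids, fell 1.38-fold in hypo females on 1 of its 2 probes (-0.47 ± 0.09 SE, limma adjusted p = 0.0349). Scap, the escort of SREBP, rose 1.43-fold from hypo to hypo+ in females (0.52 ± 0.11, adjusted p = 0.0455). Mid1ip1, the closest relative of Thrsp, averaged 0.29 ± 0.49 (SD, n = 4) in control males and 0.09 ± 0.09 in hypo males and did not pass in any comparison. No gene of the lists for carbon supply, NADPH supply or glycerolipid synthesis and storage passed, and medians of these 3 lists lay between -0.09 and 0.14 in all comparisons. The NADPH list held 6 measured genes, none of which passed, beside Me1, which did.

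The members were then compared pup by pup. The mean of each pup's own sex and treatment group was removed, and the deviations of the 34 pups were correlated for all 45 pairs of genes, with 1 probe a gene, by permuting pups within groups (100000 resamples, two-sided). The permutation treated all pups as independent, although 28 of the 34 shared the first 2 digits of their number with a pup of the other sex. The p-values may therefore be too small if littermates are alike. Over all probes the correlation between pups sharing these digits was estimated at 0.0714. Likeness of littermates in the members' deviations was not tested. Of the 45 pairs, 31 had r above 0, the median r was 0.17, and 11 had a permutation p below 0.05. Pairs of genes outside the members were not tested, so no background share stands beside these counts. After Benjamini-Hochberg adjustment over the 45, 3 pairs passed. Fasn followed Srebf1, with Pearson r = 0.69 (permutation p = 0.00016, adjusted p = 0.0072) and Spearman rho = 0.67 (adjusted p = 0.0106), and r was 0.70 without the 2 pups farthest out in Fasn. Scd1 followed Srebf1, with r = 0.58 (permutation p = 0.00073, adjusted p = 0.0111) and rho = 0.65 (adjusted p = 0.0106), and r was 0.62 without the 2 farthest pups. Acacb followed Mlxipl, with r = 0.61 (permutation p = 0.00074, adjusted p = 0.0111) and rho = 0.58 (adjusted p = 0.0273), and r was 0.59 without the 2 farthest pups.

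The third pair turned with the slide. With slide means removed together with group means, r was 0.61 for Fasn with Srebf1 and 0.62 for Scd1 with Srebf1, but -0.37 for Acacb with Mlxipl, which also turned to -0.56 when the Cy5 channel was used alone and to -0.31 with median centring in place of loess. With Cy5 alone, Fasn and Scd1 had r of 0.50 and 0.475 with Srebf1. Only 1 of the 45 pairs passed with slide means removed, and only 1 with Cy5 alone. Within males r was 0.76 for Fasn with Srebf1 and 0.63 for Scd1 with Srebf1, and within females 0.60 and 0.50. Without the 4 pups that carried acinar markers, r was 0.58 and 0.50 and no pair passed, and without the 3 that carried adipocyte markers it was 0.69 and 0.60. All values of a pup come from 1 array, so pairs share its labelling and normalisation.

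**Figure D4:**
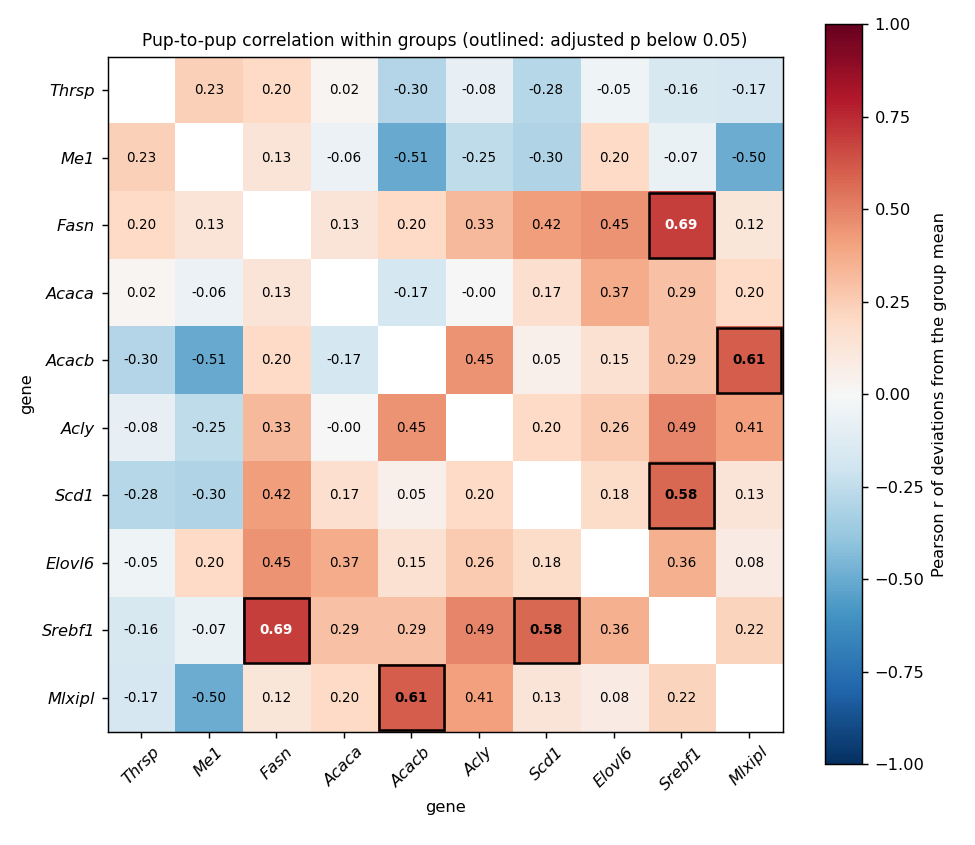
Pearson r (colour and number) between pairs of the 10 genes (both axes) over 34 pups, after the mean of each sex and treatment group was removed. Outlined pairs had an adjusted permutation p below 0.05. Fasn with Srebf1 (0.69), Acacb with Mlxipl (0.61) and Scd1 with Srebf1 (0.58) are outlined, while Thrsp with Me1 is at 0.23.

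Against control, the means of Thrsp and Me1 moved in the same direction in hypo and in hyper pups. In hypo+ pups their averaged differences were -0.13 and 0.36. Within groups they were not shown to move together: r was 0.23 (permutation p = 0.240, adjusted p = 0.490) and rho 0.18 (adjusted p = 0.590). For this pair r was 0.23 without the 2 pups farthest out in Thrsp, and -0.12 with slide means removed. Thrsp with Fasn had r = 0.20 (permutation p = 0.374, rho = 0.20, r = 0.35 without the 2 farthest pups) and Thrsp with Srebf1 r = -0.16 (permutation p = 0.340, rho = -0.15, r = -0.02 without them), both with an adjusted p of 0.558. The lowest coefficients were those of Me1 with Acacb (r = -0.51, permutation p = 0.0118) and with Mlxipl (r = -0.50, permutation p = 0.00817), both with an adjusted p of 0.0890, and r was -0.43 and -0.42 without the 2 pups farthest out. By Spearman rho the second of these passed (rho = -0.53, adjusted p = 0.0417), but with slide means removed r was 0.21.

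With treatment differences kept and only the mean of each sex removed, likeness to Thrsp describes the treatment pattern. Over 34 pups and 41053 probes with no missing value, Me1 had r = 0.75 with Thrsp (138th of all probes), Fasn 0.71 on its dimmer and 0.68 on its brighter probe (211th and 297th), and Elovl6 0.32. Scd1 was at the other end, at -0.55. Srebf1 had r = -0.01 and Mlxipl 0.19. The 5 named genes outside the members with the highest r were Ankrd2 (0.90), Nsmf (0.89), Rfk (0.89), Slc46a3 (0.89) and Trp53inp2 (0.89).

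**Figure D5:**
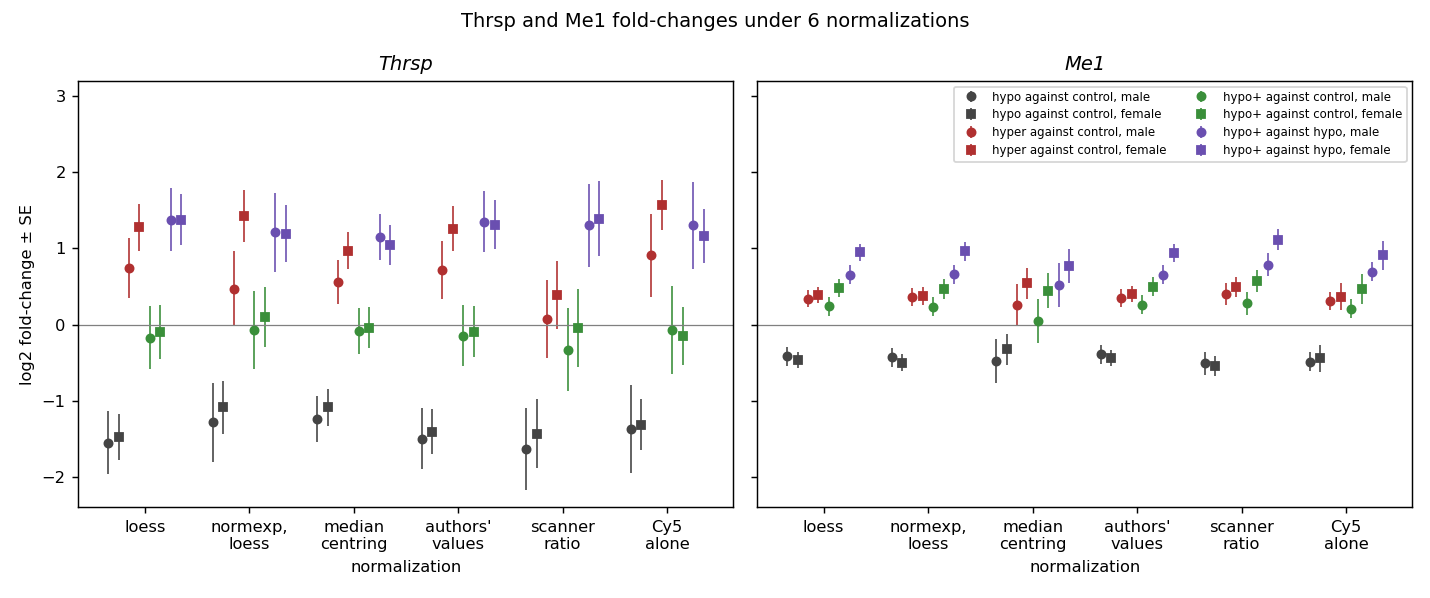
Log2 fold-change with its SE (y axis) of Thrsp and Me1 in the 4 comparisons (colours) and both sexes (circles male, squares female) under 6 normalisations (x axes). Directions hold across normalisations for hypo against control and hypo+ against hypo, with Me1 between 0.52 and 1.12 in the latter, while Thrsp in hyper males ranges from 0.07 to 0.91.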

How the data were processed

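Liver RNA of 34 pups was measured on 4 × 44k Agilent 2-colour arrays, pup in Cy5 and a common reference in Cy3 with no dye swap, and scanned with Feature Extraction 10.1.1.1. The deposited scanner files hold spot intensity in each channel and the software's log10 ratio, and the authors' value table holds normalised log2 ratios, used as an alternative. The authors removed outlier arrays, which were not analysed here.

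Median spot signals without background subtraction were loess-normalised within each array, after control spots and spots with outlier flags (77 to 212 an array) were left out. Spots of a probe were averaged, giving 41174 probes. Groups were compared within each sex with limma 3.58.1 in R 4.3.3, in place of the methods' MAANOVA, with Benjamini-Hochberg adjustment over all probes and a threshold of 0.05. The adjusted p-values measure spread between pups, and the number of arrays limits precision. Sexes were also averaged with the first 2 digits of the animal number as a random block (correlation 0.0714), a stand-in for the litter that the labels do not state. A spot well above background was so called by the scanner software. The limit from negative control spots was their mean, trimmed by 5%, plus 3 trimmed SDs. Of 33541 systematic names, 16806 matched a RefSeq symbol. Each slide held 2 to 4 of the arrays and was tried as a block and within slides. Scripts were tested on simulated data.

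Named genes were all members with every probe, listed pathway genes that passed, Dio1, and the 5 named genes most like Thrsp. Mid1ip1 was named as a list member after its values were seen. The members and lists were chosen with earlier results of these data known.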

Additional observations from a re-analysis of the deposited data

Results flagged for a closer look

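In 6 of 91 groups of 4 or 5 pups on 1 probe (6.59%), 1 pup lay far from the others, where chance gives about 1 in 20. Thrsp was at 1.78 in hypo female 893. Without that pup the hypo females were 1.75 below control on the log2 scale (-1.75, limma adjusted p = 0.00837). Scd1 was at 0.81 in hyper male 696 and Elovl6 at -0.78 in hyper male 864, each above the rest of its group. Acaca was at 0.0442 in hyper female 783 on its brightest probe, below the rest. Mlxipl was at 4.76 in control female 831, a pup with acinar markers, and at 4.62 in hypo female 721, a pup with adipocyte markers.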

How the results depend on the processing

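Counts of member genes that passed, over both sexes, moved as follows. Between hypo and control the count of 0 became 1 with slide as a fixed block and 2 with slide as a random block, and 0 to 2 with each array left out (2 without hypo female 893, 1 without control female 882). Between hyper and control 0 became 1 with either slide block, and 0 to 1 with arrays left out (1 without hypo female 893). Between hypo+ and control it was 0 in every setting. Between hypo+ and hypo 2 became 0 with median centring and 1 with the scanner ratio, only the groups compared or without the pups with adipocyte markers (the female Me1 call) or Cy5 alone (the male call), and 1 to 3 with arrays left out. The sex by treatment count was 0 in every setting.

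With sexes averaged, hypo against control went from 2 to 1 with normexp and 0 with median centring, and was 2 with any array left out. Hyper against control went from 1 to 0 with normexp, median centring, or without the pups with adipocyte or acinar markers, to 2 with the authors' values, the scanner ratio, slide as a fixed block or no litter block, and to 3 with slide as a random block. With Cy5 alone it stayed at 1, but the gene was Elovl6 in place of Me1. It was 0 to 3 with arrays left out (0 without control male 832, control male 522 or control female 831, 3 without hypo+ male 546, 2 without hypo+ male 761 or hypo female 575). Hypo+ against control went from 0 to 1, always Me1, with the authors' values, probes above the negative control limit, either slide block or no litter block, and was 0 to 1 with arrays left out. Hypo+ against hypo went from 2 to 1 with normexp, median centring, the scanner ratio or slide as a fixed block, to 4 with slide as a random block, and to 3 (Acly added) with probes above the negative control limit, no litter block or without the pups with acinar markers. With Cy5 alone it stayed at 2, with Mlxipl in place of Thrsp. It was 2 to 3 with arrays left out.

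The 3 correlated pairs became 5 with normexp, 27 with median centring, 2 with the scanner ratio, 1 with Cy5 alone, 1 with slide means removed, 2 without the pups with adipocyte markers and 0 without those with acinar markers, and 2 to 5 with arrays left out (5 without hypo male 576 or hyper female 621). The cause of these changes was not tested. Faint spots of Thrsp, Acaca, Acacb and the dimmer Fasn probe limit what could be seen.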
